A study of Mus musculus with 5 samples.

Results

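The genes described are the subunits of the complexes that methylate lysine 4 of histone H3 (H3K4), taken as 10 gene symbols: Kmt2a, Kmt2b, Kmt2c, Kmt2d, Setd1a, Setd1b, Wdr5, Ash2l, Rbbp5, and Dpy30. All 10 were found, 1 row each, among the 24421 genes of the RNA-seq tables, and all 10 passed the filter on low values in every comparison. They were chosen by name, with earlier results of these data known. The study asked whether one-carbon units from glycine, released by the glycine cleavage enzyme Gldc, feed H3K4 trimethylation in pluripotent cells, and these genes encode the subunits of the complexes that methylate H3K4.

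Methyl groups are placed on H3K4 by a family of related complexes. In each, a catalytic subunit with a SET domain (KMT2A, KMT2B, KMT2C, KMT2D, SETD1A, or SETD1B) is held by the same core of WDR5, RBBP5, ASH2L, and DPY30, without which the catalytic subunits are weak enzymes. SETD1A and SETD1B complexes are known for bulk H3K4 trimethylation at active promoters, KMT2B for trimethylation at bivalent promoters of embryonic stem cells, and KMT2C and KMT2D for monomethylation at enhancers. S-adenosyl methionine is the methyl donor of all of them.

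The data were 5 mouse RNA-seq libraries, 1 per group. MEFs were fibroblasts grown from CF-1 mouse embryos in medium with serum. The iPSCs were an established induced pluripotent line, and V6.5 was an untreated embryonic stem cell line, which stands for the mESCs; per the growth protocol of the labels, both were grown without feeders in a medium based on serum replacement with leukaemia inhibitory factor. Thus cell type, cell source, and medium cannot be told apart in any comparison with MEFs. The NTC and shGldc libraries were V6.5 cells carrying a nontargeting shRNA or a single shRNA against Gldc. With 1 library per group, no p-value can be given, and every difference below compares libraries, not conditions. Levels are given in FPKM, which scales fragment counts to the length of the transcript and to the mapped fragments of the library, so they are per length and can be set side by side between genes. Ratios are differences of log2(FPKM + 0.1), a scale that understates the change of low genes, and a difference of at least 2-fold on that scale is counted. A gene entered a comparison when 1 or more of its libraries reached an FPKM of 1. MEF, iPSC, and V6.5 values came in 1 table and NTC and shGldc values in another, made separately.

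Gldc was at 74.7 in NTC and 2.07 in shGldc, 36.05-fold lower. The 7 pluripotency markers examined (such as Pou5f1, Nanog, and Esrrb) summed to 3.15 FPKM in MEFs and to between 3623 and 6699 in the other libraries. The 7 fibroblast markers (among them Col1a1 and Twist2) summed to 6856 in MEFs, 49.5 in V6.5 cells, and between 3.69 and 12.1 elsewhere. Of 6 macrophage markers, C1qa, C1qb, and C1qc were at 32.3 to 52.7 in MEFs and at 0 to 0.197 in the other libraries. Csf1r was at 11.1 in MEFs and at 0 to 0.634 elsewhere. The other two were not particular to MEFs, with Cd68 at 18.7 in MEFs, 19.9 in iPSCs, 9.04 in V6.5 cells, 13.04 in NTC, and 12.7 in shGldc, and Ptprc below 1 in all libraries (0.651 in MEFs, 0.331 in NTC, and 0.480 in shGldc). The part of such cells in the MEF values was not tested, and in bulk RNA fewer cells of a type and less RNA per cell cannot be told apart. The depth estimated from the spacing of low values was 22100000 to 29100000 fragments. At that depth the members rested on between 261 fragments (Setd1b in V6.5 cells, 95% exact Poisson interval 230 to 295) and 15788 fragments (Ash2l in shGldc cells). These intervals cover counting error only, and for NTC and shGldc the depth may be lower by a factor of 2.

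**Figure D1:**
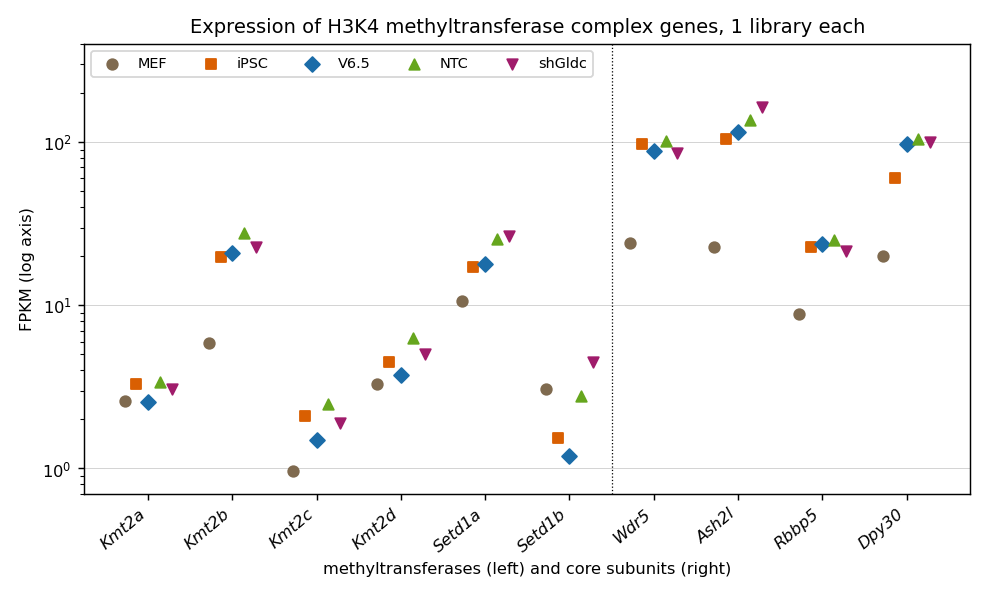
FPKM of the 10 genes on a log axis, 1 symbol per library, with the methyltransferases to the left of the dotted line and the core subunits to the right. For all 4 core subunits the MEF library lies below the other libraries, from 8.81 (Rbbp5) to 24.0 (Wdr5), while Setd1b is lowest in V6.5 cells and iPSCs.

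All 4 core subunits were higher in both pluripotent lines than in MEFs, by 2.59-fold to 5.03-fold, and each was at least 2-fold higher in V6.5 cells and in iPSCs. Among all genes tested, 30.3% were at least 2-fold higher in V6.5 cells than in MEFs and 31.5% in iPSCs, and 25.9% were so in both lines. The median log2 ratio of the core subunits was 2.08 in V6.5 cells and 1.80 in iPSCs, beside 0.25 and 0.31 for all genes.

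Ash2l, whose product holds DPY30 and stimulates the catalytic subunit, was at 22.8 in MEFs, 104.5 in iPSCs, 114.7 in V6.5 cells, 137.7 in NTC, and 165.4 in shGldc. MEFs were thus far below the other libraries, and the highest level, that of shGldc, was 7.25 times the lowest, the widest range of the 10 genes. Dpy30, the smallest subunit, was at 20.1 in MEFs, 60.5 in iPSCs, 97.8 in V6.5 cells, 104.7 in NTC, and 100.0 in shGldc. It was the core subunit that differed most between the pluripotent lines, being 1.62-fold lower in iPSCs than in V6.5 cells, and the 3 libraries of V6.5 origin lay close together. Wdr5, the subunit that binds the catalytic subunits through a short arginine motif and is the target of the inhibitor OICR-9429 used in the study, was at 24.0 in MEFs, 97.0 in iPSCs, 88.9 in V6.5 cells, 101.5 in NTC, and 86.5 in shGldc. Its levels in the 4 pluripotent libraries spanned a narrow range and were 3.71-fold (V6.5) and 4.04-fold (iPSCs) above MEFs. Rbbp5, which bridges WDR5 and ASH2L, was at 8.81 in MEFs, 22.8 in iPSCs, 23.9 in V6.5 cells, 25.1 in NTC, and 21.5 in shGldc. It was the least abundant core subunit in every library and had the smallest difference from MEFs, at 2.71-fold in V6.5 cells and 2.59-fold in iPSCs.

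The ratios to MEFs moved with transcript length across the transcriptome. The median log2 ratio of V6.5 over MEF was 0.57 for 3587 genes with transcripts under 2 kb, 0.27 for those of 2 to 4 kb, -0.03 for 4 to 8 kb, and -0.28 for 556 genes over 8 kb. The core transcripts are short (789 nt for Dpy30 to 3385 nt for Rbbp5) and those of the methyltransferases long (5927 nt for Setd1a to 19823 nt for Kmt2d), and the values of Ash2l and Dpy30 combine several transcripts. Relative to genes of their own length class, the log2 ratio of V6.5 over MEF was 2.06 for Ash2l, 1.71 for Dpy30, 1.62 for Wdr5, and 1.16 for Rbbp5. In iPSCs over MEF it was 1.85 for Ash2l, 1.67 for Wdr5, 1.02 for Rbbp5, and 0.97 for Dpy30, so that Dpy30 alone dropped below 2-fold. Markers of dividing cells moved in the same direction. The 6 examined (Mki67, Top2a, Ccnb1, Cdk1, Aurkb, and Birc5) summed to 128.1 in MEFs, 385.8 in iPSCs, 439.7 in V6.5 cells, 362.2 in NTC, and 328.4 in shGldc, and Mki67 itself was at 7.96 in MEFs, 7.55 in iPSCs, and 9.83 in V6.5 cells. The part of cell division in the level of the core subunits was not tested.

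Promoters of core subunits and of Kmt2a are shown because KMT2A, KMT2B, and the SETD1 complexes are recruited by CXXC domains that bind unmethylated CpG. RefSeq windows (GRCm38.p6, the assembly known as mm10, 250 bases before to 50 after a start) were at hand for 7 of the 10 genes. None was at hand for Ash2l, Kmt2b, or Setd1b. Each line gives a window 5′ to 3′ on the strand of the gene, with CpG dinucleotides in capitals. Those of Wdr5 (chr2:27514897-27515196, plus strand), Rbbp5 (chr1:132477117-132477416, plus strand), and Dpy30 (chr17:74316345-74316644, minus strand, the middle of 3 overlapping windows) belong to genes higher in the pluripotent lines, and that of Kmt2a (chr9:44881240-44881539, minus strand) to the gene with the smallest range.
Wdr5: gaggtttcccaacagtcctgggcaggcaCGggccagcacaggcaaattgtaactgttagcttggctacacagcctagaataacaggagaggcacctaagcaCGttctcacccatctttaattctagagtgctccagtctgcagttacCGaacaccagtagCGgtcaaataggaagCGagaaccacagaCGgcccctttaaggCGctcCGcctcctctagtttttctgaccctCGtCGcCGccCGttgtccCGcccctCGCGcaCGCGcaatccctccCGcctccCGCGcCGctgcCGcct
Rbbp5: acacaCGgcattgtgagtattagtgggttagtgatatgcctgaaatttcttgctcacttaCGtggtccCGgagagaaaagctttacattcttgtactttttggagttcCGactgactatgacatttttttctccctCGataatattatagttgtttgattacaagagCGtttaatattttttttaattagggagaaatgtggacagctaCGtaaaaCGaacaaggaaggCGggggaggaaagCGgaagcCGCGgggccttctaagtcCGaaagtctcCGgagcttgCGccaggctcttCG
Dpy30: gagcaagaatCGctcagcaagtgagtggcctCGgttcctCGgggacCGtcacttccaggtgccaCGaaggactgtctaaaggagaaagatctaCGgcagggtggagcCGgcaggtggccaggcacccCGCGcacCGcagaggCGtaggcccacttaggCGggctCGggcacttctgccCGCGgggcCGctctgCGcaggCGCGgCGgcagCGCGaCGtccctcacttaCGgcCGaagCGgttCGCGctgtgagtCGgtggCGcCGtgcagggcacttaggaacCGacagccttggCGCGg
Kmt2a: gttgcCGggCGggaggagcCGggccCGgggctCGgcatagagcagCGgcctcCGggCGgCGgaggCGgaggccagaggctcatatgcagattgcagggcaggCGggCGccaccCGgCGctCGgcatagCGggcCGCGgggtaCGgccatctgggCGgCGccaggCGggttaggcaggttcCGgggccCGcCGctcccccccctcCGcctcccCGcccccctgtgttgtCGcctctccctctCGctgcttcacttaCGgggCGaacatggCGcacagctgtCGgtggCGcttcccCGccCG

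The Wdr5 window held 22 CpG, that of Rbbp5 16, the printed window of Dpy30 34, and that of Kmt2a 36, beside a median of 7 in all 32851 windows. The windows that overlap the printed one of Dpy30 held 39 and 30, and another, farther upstream at the annotated start of the gene (chr17:74323895-74324194), held 1. The windows of Setd1a, Kmt2d, and Kmt2c held 35, 27, and 56. The GC box GGGCGG, read on both strands, was present 2 times in Wdr5, 5 times in Kmt2a, 4 times in Kmt2d, and 12 times in Kmt2c, and it is in 35.7% of all windows. It was present 1 time in 1 window of Dpy30 and absent from the printed one and from the Rbbp5 and Setd1a windows. The E box CACGTG (7.15% of all windows), the octamer ATTTGCAT (1.74%), and the ETS motif CCGGAAG (8.86%) were in none of the windows of the 7 genes.

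Among the methyltransferases, Kmt2b was higher and Setd1b lower in the pluripotent lines, and the other 4 lay between. Kmt2b, the enzyme of bivalent promoters, was at 5.84 in MEFs, 19.7 in iPSCs, 20.9 in V6.5 cells, 27.8 in NTC, and 22.7 in shGldc. It was 3.58-fold higher in V6.5 cells and 3.38-fold higher in iPSCs than in MEFs, and was the only methyltransferase at least 2-fold higher in both. Its transcript is 8469 nt long, and relative to its length class its log2 ratios were 2.097 and 2.048. Its paralogue Kmt2a, the MLL gene of leukaemia translocations, was at 2.58 in MEFs, 3.28 in iPSCs, 2.55 in V6.5 cells, 3.39 in NTC, and 3.07 in shGldc. Kmt2a varied least of the 10 genes, by 1.33-fold over the 5 libraries.

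Setd1b, a catalytic subunit of the SET1 complexes, was at 3.09 in MEFs, 1.54 in iPSCs, 1.20 in V6.5 cells, 2.79 in NTC, and 4.47 in shGldc. It was 2.58-fold lower in V6.5 cells and 2.01-fold lower in iPSCs than in MEFs, and the ratio in iPSCs (-0.96 on the log2 scale) missed the 2-fold line. Of all genes tested, 23.3% were at least 2-fold lower in V6.5 cells than in MEFs, 21.3% in iPSCs, and 18% in both. With a pseudocount of 1 the V6.5 ratio also missed the line. The low values were those of iPSCs and untreated V6.5 cells, whereas NTC lay near MEFs and shGldc above them. Counting error alone allowed FPKM of 1.06 to 1.35 for Setd1b in V6.5 cells, 2.59 to 3.001 in NTC, and 2.86 to 3.33 in MEFs (95% exact Poisson intervals at the estimated depth). Between the control libraries, NTC and untreated V6.5, its log2 ratio was 1.16, close in size to the -1.299 of V6.5 over MEF, so its difference from MEFs was not far beyond that spread. Setd1a, its partner paralogue, was at 10.6 in MEFs, 17.3 in iPSCs, 17.9 in V6.5 cells, 25.6 in NTC, and 26.7 in shGldc, 1.69-fold and 1.63-fold above MEFs in V6.5 cells and iPSCs. Of the 50-nt stretches of its annotated transcripts, 51.2% also occur in Gm49388, a gene model that overlaps it, so its level is uncertain.

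Kmt2c and Kmt2d, the enhancer enzymes, were low. The profile of Kmt2d over the libraries was about as close to that of Kmt2a as to that of Kmt2c. Kmt2c was at 0.967 in MEFs, 2.104 in iPSCs, 1.505 in V6.5 cells, 2.48 in NTC, and 1.90 in shGldc, so that it was at least 2-fold higher in iPSCs (2.18-fold) but not in V6.5 cells (1.56-fold). With MEFs below an FPKM of 1, it entered these comparisons only through the pluripotent line, where it was higher. Relative to the median of all genes, its log2 ratio in iPSCs was 0.73, under the 2-fold line. Kmt2d was at 3.29 in MEFs, 4.52 in iPSCs, 3.73 in V6.5 cells, 6.28 in NTC, and 5.05 in shGldc. Its log2 ratio of V6.5 over MEF was 0.18, and -0.07 relative to the median of all genes, so its direction depended on the scaling.

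**Figure D2:**
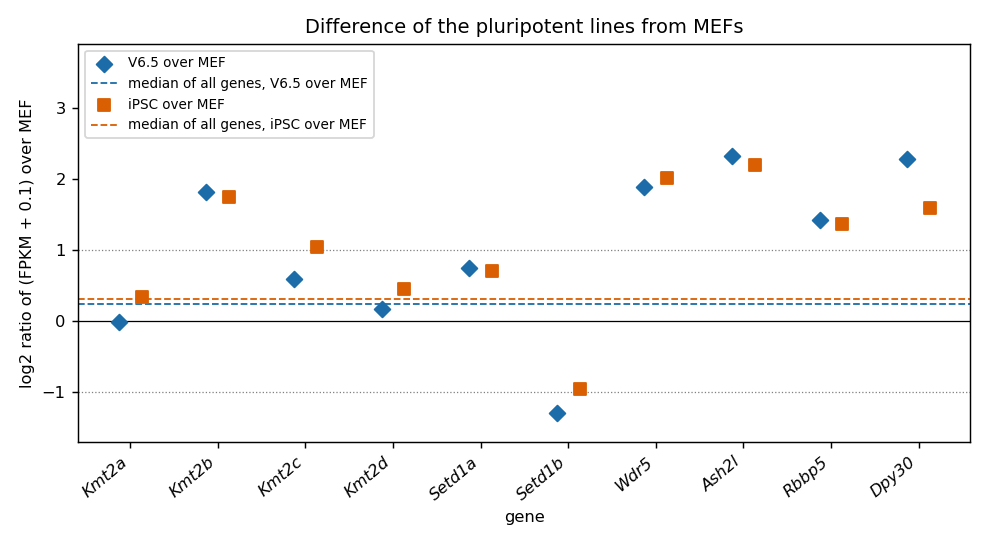
Log2 ratio of (FPKM + 0.1) of V6.5 cells (diamonds) and iPSCs (squares) over MEFs for each gene. Dashed lines give the median of all genes (0.25 and 0.31), and dotted lines mark 2-fold. Kmt2b and the 4 core subunits lie above the upper dotted line in both lines, and Setd1b lies lowest.

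Over the whole set, 5 of 10 members were at least 2-fold higher in V6.5 cells and 6 of 10 in iPSCs (5 without Kmt2c, which passed the filter only through iPSCs), beside 30.3% and 31.5% of all genes. In V6.5 cells 1 (Setd1b) was at least 2-fold lower, beside 23.3%. The members had a median log2 ratio of 1.09 in V6.5 cells and 1.20 in iPSCs, where all genes had 0.25 and 0.31. MEFs were the lowest of the 3 libraries of their table for 8 of 10 members, a pattern of 51.9% of all genes. They were the highest for Setd1b alone, a pattern of 35.6%. Of the 8, Kmt2c was below an FPKM of 1 in MEFs, so MEFs could not be its highest library. The ratios over MEF share the MEF library, so the pluripotent lines are not independent evidence of each other. No p-value supports these counts, and the whole-transcriptome shares show that differences of this size from MEFs were common.

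Ratios within a library need no scaling between libraries. The ratio of Kmt2b to Kmt2a was 2.26 in MEFs, 6.03 in iPSCs, 8.18 in V6.5 cells, 8.21 in NTC, and 7.41 in shGldc. All 4 pluripotent libraries lay well above MEFs. The ratio of Setd1a to Setd1b was 3.43 in MEFs, 11.2 in iPSCs, 15.0 in V6.5 cells, 9.17 in NTC, and 5.98 in shGldc. It also was lowest in MEFs, but it spanned 5.98 to 15.0 among the libraries of V6.5 origin. This ratio carries the uncertainty in the level of Setd1a and rests on low levels of Setd1b. The ratio of Kmt2d to Kmt2c was 3.40 in MEFs and 2.15 to 2.66 in the others.

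**Figure D3:**
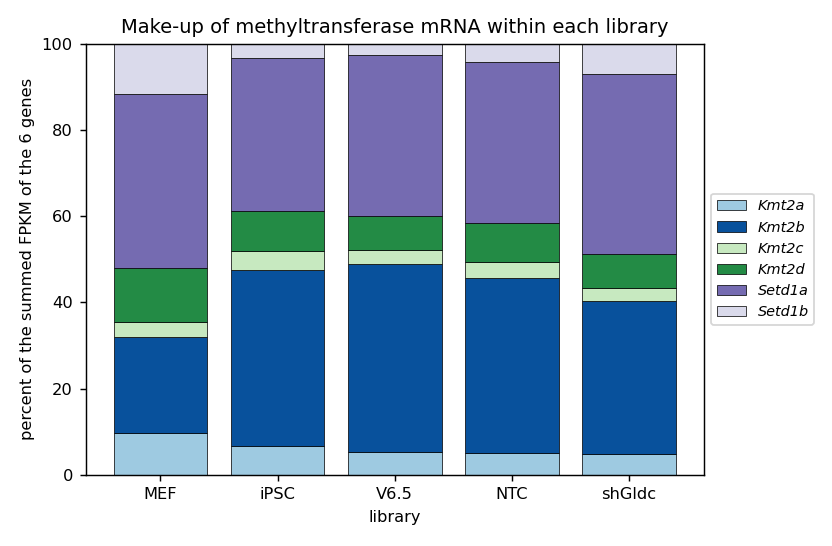
Share of each methyltransferase gene in the summed FPKM of the 6 genes, in percent, for each library. Kmt2b (dark blue) takes 22.1% in MEFs and 35.6% to 43.7% in the pluripotent libraries, and Setd1b (top) takes 11.7% in MEFs and 2.50% in V6.5 cells.

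The 6 methyltransferases summed to 26.4 FPKM in MEFs, 48.5 in iPSCs, 47.8 in V6.5 cells, 68.3 in NTC, and 63.9 in shGldc. Kmt2b and Setd1a together held most of this sum in every library. The Kmt2b share was 22.1% in MEFs, 40.7% in iPSCs, 43.7% in V6.5 cells, 40.7% in NTC, and 35.6% in shGldc. The Setd1a share stayed between 35.7% and 41.8%, and the uncertainty in its level enters all these shares. The Setd1b share was 11.7% in MEFs, 3.18% in iPSCs, 2.50% in V6.5 cells, 4.08% in NTC, and 6.99% in shGldc. Kmt2c and Kmt2d together held 16.1% in MEFs and 10.9% to 13.7% in the others. Core subunits were more abundant relative to the enzymes in the pluripotent libraries: the median core level was 0.813 times the enzyme sum in MEFs, 1.62 times in iPSCs, 1.95 times in V6.5 cells, 1.51 times in NTC, and 1.46 times in shGldc. Rbbp5 alone, the least abundant of them, was at 0.334 times the enzyme sum in MEFs and 0.336 to 0.499 times in the others. These are ratios of mRNA levels and not of proteins. Since core transcripts are short and those of the enzymes long, the trend with length enters this ratio. The median log2 ratio over MEF of the core exceeded that of the methyltransferases by 1.70 in V6.5 cells and 1.23 in iPSCs, and by 1.05 and 0.62 relative to genes of the same length class.

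Between the pluripotent lines, no member differed 2-fold. Of all genes, 10.1% were at least 2-fold higher in iPSCs than in V6.5 cells and 7.44% lower. The member ratios ran from -0.69 (Dpy30) to 0.46 (Kmt2c) on the log2 scale, with a median of 0.04, the same as that of all genes. Kmt2a, Kmt2c, Kmt2d, and Setd1b were 1.21-fold to 1.40-fold higher in iPSCs and Wdr5 1.09-fold, where 52.6% of all genes were higher. Besides Dpy30, the lower members were near equal, with Ash2l at -0.13, Kmt2b at -0.08, Rbbp5 at -0.07, and Setd1a at -0.05. Every member but Dpy30 lay within the robust SD of 0.65 over all genes in this comparison.

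Knockdown of Gldc left all 10 members within 2-fold of NTC. Of all genes, 8.97% were at least 2-fold higher in shGldc than in NTC and 7.68% lower. The median log2 ratio of the members was -0.18, beside 0.04 for all genes, and 7 of 10 were lower and 3 higher, where 52.8% of all genes were higher. The highest was Setd1b at 0.66 (1.60-fold, from 2.79 to 4.47), and 15.3% of all genes had a ratio at least as high. Ash2l was at 0.26 and Setd1a at 0.06. The lowest were Kmt2c at -0.37, Kmt2d at -0.31, and Kmt2b at -0.29, which correspond to 1.305-fold, 1.25-fold, and 1.22-fold lower levels, followed by Wdr5 at -0.23, Rbbp5 at -0.22, Kmt2a at -0.14, and Dpy30 at -0.07.

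Markers of cell state also differed between these libraries. The 6 germ-layer markers summed to 8.94 FPKM in NTC and 23.0 in shGldc, beside 13.9 in untreated V6.5 cells. Gata6, a factor of primitive endoderm, was at 0.462 in NTC and 8.22 in shGldc, and Gata4, of the same lineage, at 2.38 and 7.84. T was at 4.33 and 5.08, Sox17 at 0.160 and 0.656, Sox1 at 1.43 and 1.15, and Pax6 at 0.166 and 0.0725. The 7 pluripotency markers summed to 4058 in NTC and 3623 in shGldc, where Utf1 was 1.83-fold, Sox2 1.71-fold, and Esrrb 1.64-fold lower and Dppa5a 1.24-fold higher. The control libraries differed as well, with a pluripotency sum of 6699 in untreated V6.5 cells. T was 10.2-fold higher, Sox1 5.32-fold lower, and Pax6 6.92-fold lower in NTC than in untreated cells. Gata6 (0.646 in untreated cells), Gata4 (3.52), Utf1, Sox2, and Esrrb differed less between the controls than between shGldc and NTC. The part of the marker differences between shGldc and NTC in the values of Setd1b and the other members was not tested.

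The libraries of NTC and untreated V6.5 cells, both controls of the same line, give a scale for these values, although they come from separately made tables. Over all genes the robust SD of their log2 ratio was 0.59, and it was 0.76 for genes with a mean FPKM of 1 to 5 and 0.44 for those of at least 20. All 10 members were higher in NTC than in untreated cells, as were 45.6% of all genes, with a median log2 ratio of 0.40 beside -0.06 for all genes. Setd1b was 2.33-fold higher (1.16), and at least 2-fold differences were seen for 4.99% of all genes upwards and 10.3% downwards. Kmt2d (0.74), Kmt2c (0.68), and Setd1a (0.51) followed. Each methyltransferase thus differed more between the controls than between shGldc and NTC. Of the core subunits, Ash2l had a log2 ratio of 0.26 in each of these comparisons, Dpy30 was also nearer in shGldc over NTC, and Wdr5 and Rbbp5 were not, with 0.19 and 0.07 between the controls.

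Against untreated V6.5 cells, the shGldc library was higher for 8 of 10 members and for 48.8% of all genes, with a median log2 ratio of 0.29 beside -0.02. Setd1b was 3.73-fold higher (1.82) and the only member past 2-fold, where 9.89% of all genes were higher and 13.9% lower by that much. The levels of Kmt2a, Kmt2b, Kmt2c, Kmt2d, and Dpy30 in shGldc lay between those of untreated and NTC cells, Setd1a, Setd1b, and Ash2l were highest in shGldc, and Wdr5 and Rbbp5 were lowest. A lower level in shGldc than in NTC was therefore also a lower level than in untreated cells only for Wdr5 and Rbbp5. Their log2 ratios to untreated cells were small, at -0.04 (Wdr5) and -0.15 (Rbbp5), and cross the separately made tables. For Wdr5 the counting intervals overlapped, at 84.5 to 88.5 in shGldc and 86.8 to 91.2 in untreated cells, so its order is not resolved.

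**Figure D4:**
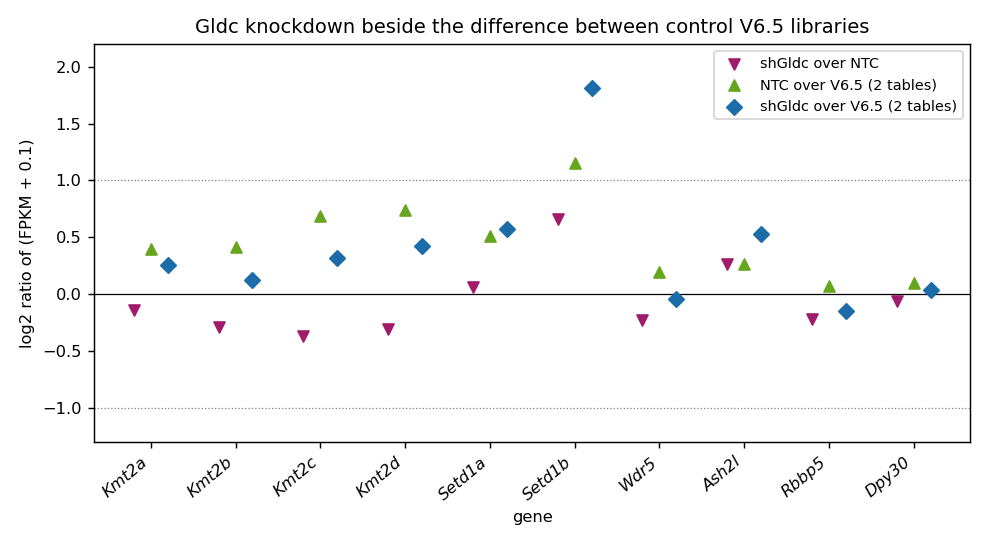
Log2 ratio of (FPKM + 0.1) for shGldc over NTC, NTC over untreated V6.5 cells, and shGldc over untreated V6.5 cells, where the last pair cross the separately made tables. Dotted lines mark 2-fold. All shGldc over NTC values lie between -0.37 and 0.66, and Setd1b has the highest value in every comparison.

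The 12 partner subunits, found in some of the complexes and not in all, lay closer to MEFs than the core subunits did, by their median. Compared with MEFs, 2 were at least 2-fold higher in V6.5 cells (30.3% of all genes) and 0 in iPSCs (31.5% of all genes). Hcfc2 alone was at least 2-fold lower in both lines, as were 18% of all genes. Their median log2 ratio was 0.35 in V6.5 cells and 0.36 in iPSCs, close to the medians of all genes. In the SET1 complexes, Cxxc1, the CpG-binding subunit, was at 24.5 in MEFs, 36.1 in iPSCs, and 30.3 in V6.5 cells. Wdr82, which ties the complex to RNA polymerase II, was at 24.0, 32.3, and 31.8 in the same order. The log2 ratios of V6.5 over MEF of the other SET1 subunits were 0.74 for Hcfc1, whose product is also found in menin complexes, 0.09 for Bod1, and -0.84 for Bod1l. In the KMT2A and KMT2B complexes, Men1, which encodes menin, was at 26.1 in MEFs, 25.8 in iPSCs, and 25.3 in V6.5 cells, beside the large difference of Kmt2b. Psip1, the chromatin tether LEDGF, was at 18.2, 31.5, and 38.7, but at 21.4 in NTC and 18.3 in shGldc, so the libraries of V6.5 cells with an shRNA lay near MEFs. Hcfc2 was 3.04-fold lower in V6.5 cells and 3.95-fold lower in iPSCs than in MEFs, from 8.30. In the KMT2C and KMT2D complexes, Paxip1 was at 4.87 in MEFs, 9.60 in iPSCs, and 11.2 in V6.5 cells. The V6.5 over MEF ratios of the others were 0.94 for Pagr1a, 0.51 for Kdm6a, the H3K27 demethylase of these complexes, and -0.71 for Ncoa6. In shGldc over NTC none of the 12 reached 2-fold, where 8.97% of all genes were higher and 7.68% lower by that much. The highest were Hcfc2 at 0.78 and Bod1 at 0.67, and the lowest was Hcfc1 at -0.30.

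Of the 6 H3K4 demethylases, which remove the mark, 2 (Kdm5b and Kdm1a) were at least 2-fold higher in both pluripotent lines, a share not far from the 25.9% of all genes. Kdm5b, a demethylase of trimethylated H3K4, was at 13.8 in MEFs, 43.7 in iPSCs, 52.6 in V6.5 cells, 62.3 in NTC, and 41.2 in shGldc, which is 3.82-fold higher in V6.5 cells and 3.17-fold higher in iPSCs than in MEFs. In shGldc over NTC it was 1.51-fold lower (-0.59), the largest difference among the 5 demethylases that passed the filter there, and 1.27-fold lower than in untreated cells. Kdm1a, which demethylates mono- and dimethylated H3K4, was at 38.8 in MEFs, 85.7 in iPSCs, 107.5 in V6.5 cells, 120.4 in NTC, and 103.0 in shGldc. It was the most abundant demethylase in every library. Kdm5a was at 2.50 to 4.48, Kdm1b at 2.16 to 3.92, and Kdm5c at 14.0 to 26.6 over the 5 libraries, with no difference of 2-fold in these comparisons. Kdm5d, a Y-linked gene, was at 1.07 in MEFs and 0.997 in iPSCs, was listed at 0 in V6.5 cells, and was at 0.149 in NTC and 0.593 in shGldc.

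**Figure D5:**
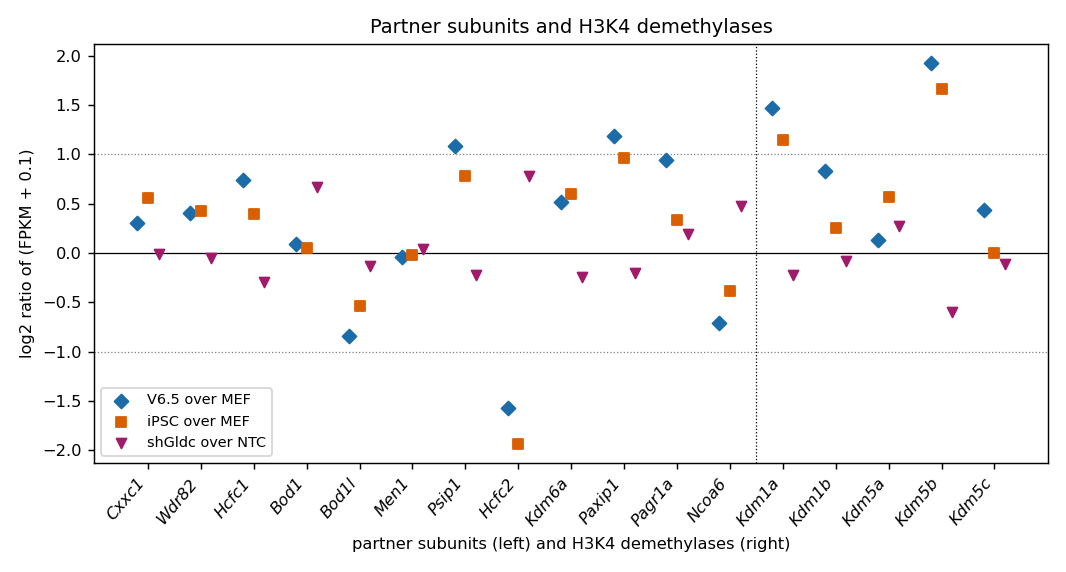
Log2 ratio of (FPKM + 0.1) of the partner subunits (left of the dotted line) and of H3K4 demethylases without Kdm5d (right), for V6.5 cells and iPSCs over MEFs and shGldc over NTC. Kdm1a and Kdm5b lie above the upper dotted line (2-fold) in both pluripotent lines, and Hcfc2 lies below the lower one.

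Of 8 other SET or SMYD enzymes reported on H3K4, 6 passed the filter against MEFs and 5 in shGldc over NTC. Compared with MEFs, Smyd3 and Prdm16 were at least 2-fold higher and Setd7 and Ash1l at least 2-fold lower in both pluripotent lines, as 25.9% and 18% of all genes were. Prdm16, at 0.405 in MEFs, 1.47 in iPSCs, and 2.06 in V6.5 cells, passed the filter only through the pluripotent lines. Ash1l, at 4.14 in MEFs, 1.51 in iPSCs, and 0.930 in V6.5 cells, passed only through MEFs for V6.5 cells. In shGldc over NTC, Smyd2 was at 24.2 in NTC and 58.4 in shGldc, and Setd7 at 2.07 and 4.42, both at least 2-fold higher, as were 8.97% of all genes. Smyd1, at 0.0753 and 1.10, passed the filter only through shGldc and had to differ, and Prdm16, at 0.762 and 0.0825, did not pass it. Against untreated V6.5 cells, Smyd2 (39.97), Setd7 (2.55), and Smyd1 (0.626) were 1.46-fold, 1.73-fold, and 1.76-fold higher in shGldc. Of 14 proteins that bind trimethylated H3K4, 4 were at least 2-fold higher than MEFs in V6.5 cells and 4 in iPSCs, a share near that of all genes (30.3% and 31.5%). These were Ing5, Sgf29 (listed by its older symbol Ccdc101), and Phf13 in both, Ing2 in V6.5 cells, and Taf3 in iPSCs. Phf2 was lowest, at -2.04 in V6.5 cells and -2.31 in iPSCs. None reached 2-fold in shGldc over NTC, where Ing4 was highest at 0.63 and Chd1 lowest at -0.37.

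The profile of Ash2l, the member with the widest range, was compared with those of 13655 genes by the root mean square distance of log2 values centred over the 5 libraries. The nearest were Znrf2 (0.10), 1700030J22Rik (0.10), Apitd1 (0.12), Mcm2 (0.13), and Exo1 (0.13), beside a median distance of 1.09. Mcm2, a subunit of the replicative helicase, was at 42.6 in MEFs, 188.2 in iPSCs, 221.9 in V6.5 cells, 246.3 in NTC, and 246.1 in shGldc. Among the members, Dpy30 was nearest to Ash2l, at 0.25 and number 86 of all genes, and Wdr5 was the nearest member to Kmt2b, at 0.15 and number 56. With 5 libraries, 3 of them from V6.5 cells, these distances describe the profiles only.

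Positions are those of the GENCODE M21 annotation of mm10. Ash2l lies on chromosome 8 from 25815996 to 25847694 (minus strand), Dpy30 on chromosome 17 from 74299474 to 74323944 (minus), Wdr5 on chromosome 2 from 27515157 to 27536535 (plus), and Rbbp5 on chromosome 1 from 132477365 to 132505659 (plus). Kmt2b lies on chromosome 7 from 30568858 to 30588726 (minus) and Setd1a on the same chromosome from 127776670 to 127800122 (plus). Setd1b and Kmt2c lie on chromosome 5, from 123142193 to 123168629 (plus) and from 25271798 to 25498783 (minus). Kmt2a lies on chromosome 9 from 44803355 to 44881296 (minus) and Kmt2d on chromosome 15 from 98831669 to 98871204 (minus). Kmt2a, Kmt2c, and Setd1b overlap other annotated genes besides Setd1a, so their values may hold reads of these. Shared sequence was at most 5.45% of 50-nt stretches, in Rbbp5, for all members other than Setd1a.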

How the data were processed

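RNA of 5 mouse libraries, 1 per group, was extracted with TRIzol and sequenced on an Illumina HiSeq instrument. The authors mapped the reads to mm10 with TopHat2 (2.1.0), assembled transcripts with StringTie (1.3.4d), and computed gene values with Ballgown, and they deposited FPKM values of 24421 genes in 2 separately made tables. The annotation, strand setting, and filters are not given in the sources used here, so sense and antisense reads of overlapping genes cannot be told apart. The column named sh3 was taken as the shGldc library, the only one besides NTC in its table.

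From the FPKM values, log2(FPKM + 0.1) differences were computed, with no test, where 1 or more libraries of a comparison reached an FPKM of 1. The estimate of depth used the spacing of low products of FPKM and transcript length in 5723 single-transcript genes, searched from 0.03 to 0.06. For NTC, 25 low values lay at multiples of the step and 32 at multiples of a step of 2 times the size (shGldc 33 and 28). Lengths, positions, and shared 50-nt stretches came from GENCODE M21. Members and gene lists were chosen with earlier results of these data known. The genes named are the 10 members, their partner subunits and the demethylases in full, of the other lists the lowest and the highest by ratio, and the 5 profiles nearest to the widest-ranging member. Other genes named, such as those at least 2-fold different in these lists and the markers, were chosen after they were seen. Alternatives were a pseudocount of 1 or 0.01, rescaling to the same FPKM sum, centring on the median of all genes, a filter at an FPKM of 5 or none, and the mean. Centring by length class was added after seeing the data. The ratio script was tested on simulated data. Tables were handled with pandas 2.3.3 and numpy 2.4.6 in Python 3.11.15, Poisson intervals came from scipy 1.17.1, and plots from matplotlib 3.10.9.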

Additional observations from a re-analysis of the deposited data

Results flagged for a closer look

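The difference from MEFs had opposite signs in V6.5 cells and iPSCs for 3 of the members and related genes and for 3 of the markers examined, and these differences between the lines were not tested, since each line was 1 library. Kmt2a had a log2 ratio of -0.0121 in V6.5 cells and 0.3345 in iPSCs. Setmar had -0.0405 and 0.1105, and Ing4 had -0.4189 and 0.3555. Each of these values is smaller than the robust SD of 0.59 between the control V6.5 libraries, but for Ing4 the difference between the lines (iPSC over V6.5) was 0.77 and larger than it. Among the markers, the dividing-cell marker Mki67 had 0.3006 and -0.0763, also within that SD. The V6.5 values of Cd68 (-1.042, beside 0.0888 in iPSCs) and of Gata6 (-2.2953, beside 0.3184) were larger than it.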

How the results depend on the processing

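No paired analysis was possible because each group had 1 library, and for the same reason no replicate could be left out. Of 132 medians and counts of members recomputed under the alternatives, 123 moved by less than the robust SD of 0.59 between NTC and untreated V6.5 libraries or, for counts, by at most 1.5 times. With a pseudocount of 1, the number of members at least 2-fold lower in V6.5 cells than in MEFs was 0 in place of 1, and the number at least 2-fold higher in NTC than in V6.5 cells was 0. With an FPKM of at least 5, which leaves 6 members for V6.5 over MEF and 7 for the comparisons across tables, the median of V6.5 over MEF was 1.85, the number at least 2-fold lower was 0, and the numbers at least 2-fold higher in NTC and in shGldc than in V6.5 cells were 0. With a pseudocount of 0.01, with libraries rescaled to the same FPKM sum, or with ratios centred on the all-gene median, 1 member (Setd1b) was at least 2-fold lower in iPSCs than in MEFs. Of 399 single values, 398 moved by less than 0.59 and none changed sign past 2-fold; Dpy30 in iPSCs over MEF went from 1.59 to 0.97 with centring by length class. The sign changed for Kmt2d in V6.5 over MEF, to -0.06 with rescaled libraries and -0.07 with centring, and for Kmt2a, from -0.01 to 0.26 with centring by length class. The same 5 genes were nearest to Ash2l after rescaling. Counting error is small for these genes at the estimated depth, and the spread between cultures was not measured.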
